A study of Mus musculus with 6 samples.

Results

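The genes described here mark macrophages of the fetal lung or carry their growth signal, and they were read in whole lungs of mouse embryos on day E14.5. They are the colony stimulating factor gene Csf1, the receptor genes Csf1r, Cx3cr1, Trem2, Fcgr3 and Mrc1, the surface phosphatase gene Ptprc, and Cd68, Aif1 and Lyz2, which encode other macrophage proteins. They were chosen by name as 10 of the 19946 genes tested, and each has 1 array feature with its symbol as the only annotated gene. The control group consisted of 3 Shh-Cre embryos, in which the Shh locus drives Cre recombinase in the endoderm that gives rise to the lung epithelium. The mutant group consisted of 3 Shh-Cre embryos that were also homozygous for floxed (loxP-flanked) Foxp1, Foxp2 and Foxp4, which encode forkhead transcription factors. Foxp2 is taken from the title of the series, since the genotype label lists Foxp1 again in its place. All embryos carried Shh-Cre and were of mixed C57BL/6 and 129X1 background. Macrophages do not descend from the endoderm, so they are outside the cells in which this Cre is known to act.

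Macrophages enter the lung before birth from the yolk sac and the fetal liver, and they clear debris while the airways branch. Their survival depends on the receptor tyrosine kinase encoded by Csf1r, which binds the ligands made from Csf1 and Il34, while Cx3cr1 encodes the receptor of the membrane-bound chemokine made from Cx3cl1. The fetal cells become alveolar macrophages around birth, under a further growth factor made by the epithelium.

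Pearson correlations over all genes were at least 0.998 among control arrays and 0.994 among mutant arrays, and 0.988 to 0.991 for a control with a mutant. Of the targeted genes, Foxp2 fell, with a mutant minus control difference of -0.95 ± 0.05 log2 units (SE, n = 3 in each group, limma adjusted p = 4.75e-05), and so did Foxp4 (-0.64 ± 0.10, adjusted p = 0.00591). Foxp1 was at -0.31 ± 0.08 and did not pass (adjusted p = 0.0661). Whether these features read the deleted exons was not analysed here. Mutant 1 stood apart in heart muscle genes, whose median relative to the control means was 1.18 in mutant 1, -0.18 in mutant 2 and -0.14 in mutant 3. None of the 18 heart muscle genes passed with limma, against 7.66% of all genes. At an unadjusted p under 0.05 the count was also 0, where 3957 of all 19946 genes passed in either direction. Their summed level spanned 12.08 to 12.13 in controls and 11.18 to 13.38 in mutants (log2 of summed linear values). Actc1, a sarcomeric actin gene, was at -1.42 and Tnni1, a troponin gene, at 0.53 (limma adjusted p 0.278 and 0.466). The mutants were split in Actc1, which read 10.98, 11.08 and 10.88 (controls 1 to 3) against 11.37, 8.70 and 8.61 (mutants 1 to 3). Mutants 2 and 3 thus lay far below the controls, and mutant 1 above them.

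Transcripts of the macrophage growth factor, of its receptor and of the chemokine receptor Cx3cr1 were higher in mutant lungs. Csf1, Csf1r and Cx3cr1 rose, 1.34-fold, 1.35-fold and 1.31-fold, and none of the other members passed the test. Thus 3 of the 10 genes were called higher and 0 lower at a limma adjusted p under 0.05, against 3.84% higher, 3.83% lower and 7.66% in either direction among all genes. At an unadjusted p under 0.05 the counts were 5 higher and 0 lower, where 3957 of all 19946 genes passed in either direction. The difference was above 0 in 9 of the 10, against 48% of all genes, and the median over the 10 was 0.24, against -0.01 over all genes. In 5 of the 10 all mutant values lay above all control values, against 13.4% of all genes. No test was made of the 10 genes as a set, and they were chosen with earlier results of these data known. In whole lung, a larger share of macrophages, more RNA per macrophage and RNA from other cells cannot be told apart.

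**Figure D1:**
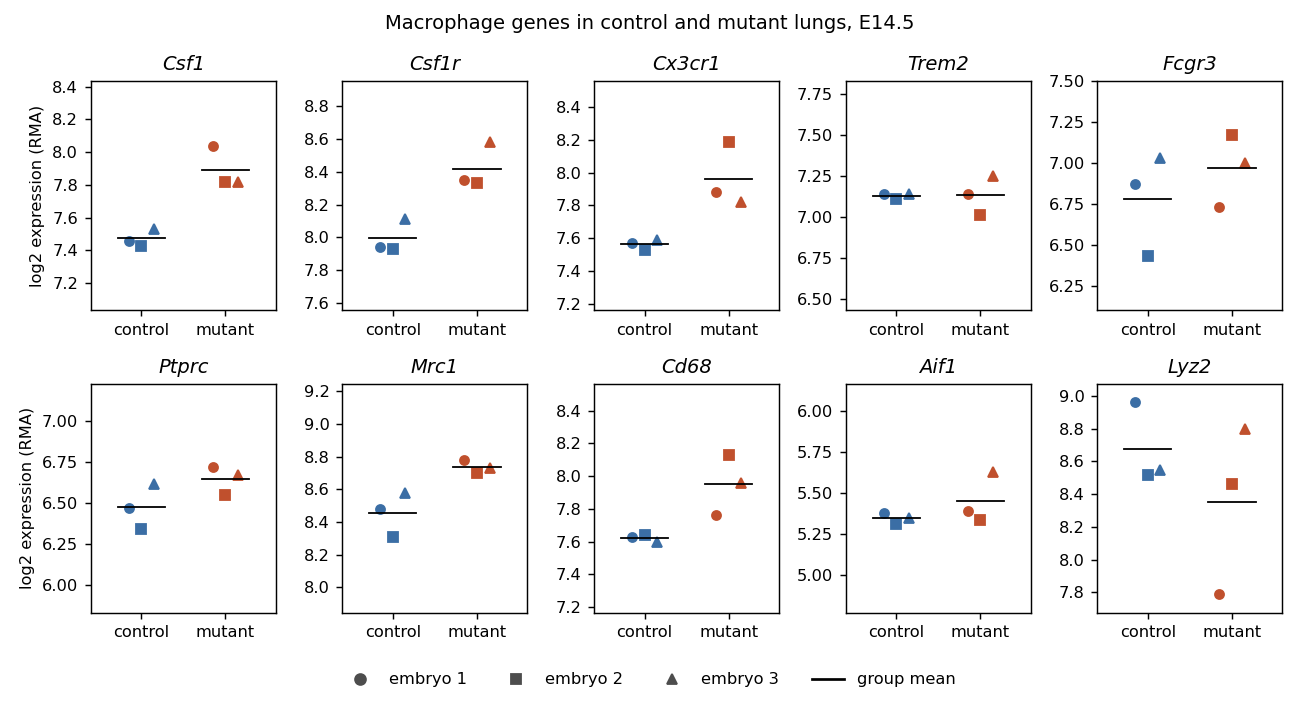
Log2 expression (RMA) of the 10 macrophage genes in 3 control and 3 mutant lungs, 1 point per embryo, with a line at the group mean and the same span of 1.4 log2 units on each axis. The mutant points of Csf1, Csf1r, Cx3cr1, Mrc1 and Cd68 lie above the control points, and those of the other 5 genes overlap them.

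The ligand gene came first. Csf1 read 7.46, 7.43 and 7.53 (controls 1 to 3) against 8.04, 7.82 and 7.82 (mutants 1 to 3). The groups did not overlap, and mutant 1 was the highest. The difference was 0.42 ± 0.07 (SE, n = 3 per group, limma adjusted p = 0.0132), more than the SD within either group (0.05 in controls and 0.13 in mutants). Without mutant 1, the array with the high heart muscle genes, it was 0.35 (adjusted p = 0.0182). The call ended without control 1 (adjusted p = 0.0604) and without control 2 (0.0669), and the difference stayed between 0.35 and 0.46 with any single array left out.

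The receptor gene Csf1r read 7.94, 7.93 and 8.11 (controls 1 to 3) against 8.35, 8.33 and 8.58 (mutants 1 to 3). Array 3 was the highest of its group in both, and the groups did not overlap. The difference was 0.43 ± 0.09 (adjusted p = 0.0208), with a 95% interval from 0.23 to 0.63. The call ended without control 1 (adjusted p = 0.0922) and without control 2 (0.0954), at a difference of 0.40 in each case. In the RefSeq annotation the neighbours of Csf1r among protein-coding genes are Pdgfrb, a growth factor receptor gene of pericytes and fibroblasts, and Hmgxb3. Pdgfrb rose as well (0.36 ± 0.06, adjusted p = 0.0133; up to 0.0628 without control 1, and not passing without control 2 or control 3). Hmgxb3, named after its value was seen, was at -0.10 ± 0.06 (adjusted p = 0.443).

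Cx3cr1 read 7.57, 7.53 and 7.59 (controls 1 to 3) against 7.88, 8.19 and 7.82 (mutants 1 to 3). The controls lay close together, and mutant 2 was the highest. The difference was 0.39 ± 0.10 (limma adjusted p = 0.0473), close to the threshold. The call ended without control 1, control 2, control 3 or mutant 1 (adjusted p 0.145, 0.162, 0.141 and 0.0546), and also when the arrays were centred on their medians (0.0673) or all single-symbol features were tested (0.0511). It held without mutant 2, where the difference was 0.28 (adjusted p = 0.0233), and without mutant 3 (0.47, adjusted p = 0.0404).

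**Figure D2:**
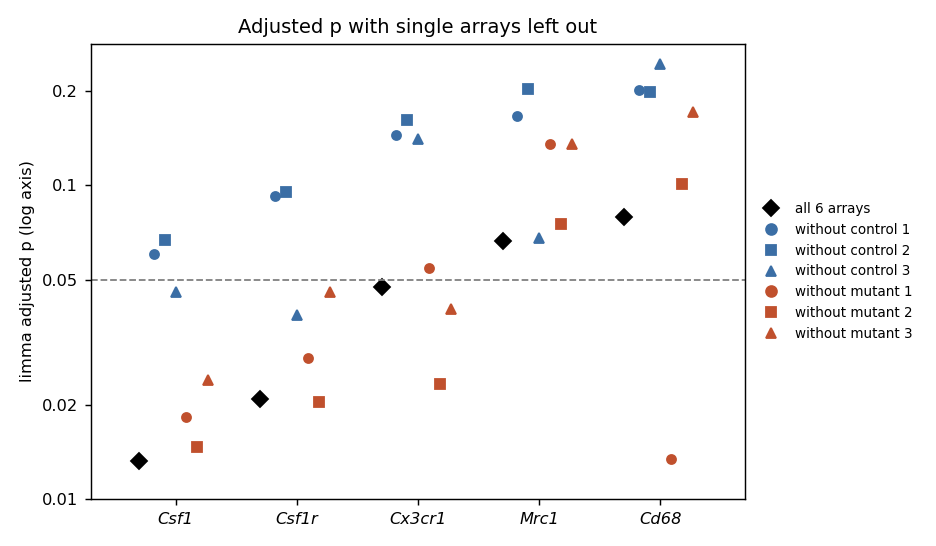
Limma adjusted p (log axis) of the 5 macrophage genes whose groups did not overlap, with all 6 arrays (diamonds) and with each array left out (blue for controls, orange for mutants, symbols for embryos 1 to 3); the dashed line is the threshold of 0.05. Leaving out control 1 or control 2 lifted Csf1, Csf1r and Cx3cr1 above the line, and Cd68 fell below it without mutant 1.

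Groups that did not overlap, but without a call, were seen for a scavenging receptor gene and a lysosomal gene. Mrc1, which encodes the mannose receptor, read 8.48, 8.31 and 8.58 (controls 1 to 3) against 8.78, 8.70 and 8.73 (mutants 1 to 3). The mutants differed little among themselves (SD 0.04), and the lowest value was that of control 2. Its difference of 0.28 ± 0.08 did not pass (adjusted p = 0.0663). Cd68, a glycoprotein gene of late endosomes and lysosomes, read 7.63, 7.64 and 7.60 (controls 1 to 3) against 7.76, 8.13 and 7.96 (mutants 1 to 3). Mutant 1 lay nearest to the controls. Its difference of 0.33 ± 0.09 did not pass either (adjusted p = 0.0792). Without mutant 1 it was 0.42 and passed (adjusted p = 0.0134), but mutant 1 had the lowest of the 3 values, so its removal tilts the fit toward a rise.

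The other receptor genes overlapped between the groups. Trem2, a lipid-binding receptor gene, read 7.14, 7.11 and 7.14 (controls 1 to 3) against 7.14, 7.01 and 7.25 (mutants 1 to 3). Its difference of 0.01 ± 0.07 (adjusted p = 0.975) had a 95% interval from -0.16 to 0.17, and its sign changed with the scaling of the arrays (-0.02 when they were centred on their medians). Fcgr3, a low-affinity receptor gene for immunoglobulin G, read 6.87, 6.43 and 7.03 (controls 1 to 3) against 6.73, 7.17 and 7.00 (mutants 1 to 3). Control 2 was low, and the difference of 0.19 ± 0.16 did not pass (adjusted p = 0.62, interval from -0.19 to 0.57). The related genes Fcgr4 and Fcgr2b, named after their values were seen, were at -0.24 (adjusted p = 0.101) and -0.10 (adjusted p = 0.53). How far the features of these related genes cross-hybridise was not tested. The control means of Trem2 (7.13) and Fcgr3 (6.78) lay below the median of all genes in controls (7.34). For such dim genes a missing call does not show an equal level.

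The leukocyte phosphatase gene Ptprc, which encodes CD45 of white blood cells, read 6.47, 6.34 and 6.62 (controls 1 to 3) against 6.72, 6.55 and 6.67 (mutants 1 to 3). Only mutant 2 fell within the control range, and the difference of 0.17 ± 0.08 did not pass (adjusted p = 0.331). Aif1, which encodes an actin-binding protein of macrophages, read 5.38, 5.31 and 5.35 (controls 1 to 3) against 5.39, 5.34 and 5.63 (mutants 1 to 3). These values, and the group means of Ptprc (6.48 in controls and 6.64 in mutants), lie below the array medians over all features (6.70 to 6.79). There RMA compresses differences. The difference of Aif1 was 0.11 ± 0.08 (adjusted p = 0.572), and 0.02 without mutant 3.

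Lyz2 was the member with a negative difference and the widest spread. This lysozyme gene is active in macrophages and also in type II cells of the distal epithelium. It read 8.96, 8.52 and 8.55 (controls 1 to 3) against 7.79, 8.46 and 8.80 (mutants 1 to 3). Mutant 1 was far below the other arrays, mutant 2 lay just under the lowest control, and mutant 3 lay within the control range. The difference of -0.33 ± 0.24 did not pass (adjusted p = 0.535, interval from -0.88 to 0.22), and it was -0.05 without mutant 1. The neighbouring lysozyme gene Lyz1, similar in sequence and named after its value was seen, was at -0.02 (adjusted p = 0.924).

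**Figure D3:**
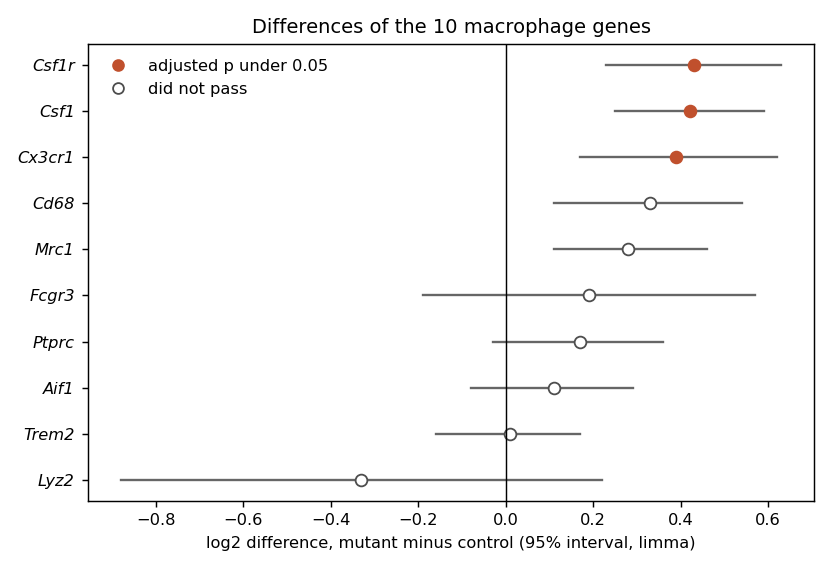
Log2 difference, mutant minus control, of each macrophage gene with its 95% interval from the limma fit; filled points passed an adjusted p of 0.05 over all genes. Csf1r, Csf1 and Cx3cr1 passed, the intervals of Cd68 and Mrc1 lie above 0 without passing the adjustment, and those of the other 5 genes include 0.

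Promoter sequences (GRCm38.p6) are shown for the members whose groups did not overlap and for which a sequence was available. Sequences were available for 9 of the 10 symbols, with Csf1r the exception. Each run is the 250 bases before the annotated start, 5′ to 3′ on the gene's strand. They lie at chr3:107760470-107760719 (minus strand) for Csf1, chr9:120068297-120068546 (minus) for Cx3cr1, chr2:14229164-14229413 (plus) for Mrc1 and chr11:69666171-69666420 (minus) for Cd68. Capitals mark matches on either strand to GAGGAA, the core bound by the myeloid factor made from Spi1, to TGANTCA, an AP-1 site, or to TGTTTAC, a forkhead site. The motifs do not overlap in these runs.
Csf1: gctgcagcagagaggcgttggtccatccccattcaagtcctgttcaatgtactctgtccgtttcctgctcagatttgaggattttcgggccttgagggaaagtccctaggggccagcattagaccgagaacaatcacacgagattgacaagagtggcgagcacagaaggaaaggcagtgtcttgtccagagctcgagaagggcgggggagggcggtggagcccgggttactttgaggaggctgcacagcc
Cx3cr1: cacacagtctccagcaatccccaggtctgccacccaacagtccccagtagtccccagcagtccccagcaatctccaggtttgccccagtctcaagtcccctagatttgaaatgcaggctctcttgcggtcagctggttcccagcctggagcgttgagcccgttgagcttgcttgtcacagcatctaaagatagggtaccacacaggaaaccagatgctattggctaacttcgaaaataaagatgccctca
Mrc1: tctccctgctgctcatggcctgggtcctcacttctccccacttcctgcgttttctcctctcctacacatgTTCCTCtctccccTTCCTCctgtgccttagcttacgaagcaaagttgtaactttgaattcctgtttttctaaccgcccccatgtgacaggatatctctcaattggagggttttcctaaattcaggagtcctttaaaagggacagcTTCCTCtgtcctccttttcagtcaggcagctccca
Cd68: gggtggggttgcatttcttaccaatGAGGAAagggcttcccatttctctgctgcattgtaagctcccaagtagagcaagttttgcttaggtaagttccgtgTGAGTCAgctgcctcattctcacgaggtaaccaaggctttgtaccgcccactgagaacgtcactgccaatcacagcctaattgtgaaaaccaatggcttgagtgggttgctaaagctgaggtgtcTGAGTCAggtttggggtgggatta
Both called genes shown, Csf1 and Cx3cr1, had 0 matches to any of the 3 motifs. Mrc1 held GAGGAA 3 times, with first bases 180, 167 and 35 bases before the start, each on the reverse strand, where it appears as TTCCTC. Cd68 held it once, 225 bases before the start, and TGANTCA at 149 and 24 bases before it. Among all 11 windows of the 9 genes, 7 held GAGGAA (genes Aif1, Cd68, Fcgr3, Mrc1, Ptprc and Trem2), against 23.3% of all 32851 windows of this length. TGANTCA was in 2 of the 11 (Cd68 and Trem2), against 6.75%. TGTTTAC was in 0 of the 11, against 3.17%. A match describes letters in the window and is no evidence of binding.

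Other genes of the same signals did not pass the test. In the list of partners of the growth factor and chemokine receptors, 0 of 18 genes rose or fell with limma (median 0.00), against 7.66% of all genes. At an unadjusted p under 0.05 the counts were 1 higher and 2 lower, where 3957 of all 19946 genes passed in either direction. In 2 of the 18 the mutants lay wholly above the controls (13.4% of all genes did) and in 3 wholly below (12.6%). Only 5 of the 18 read above the median of all genes in controls (7.34), and for dim genes a missing call does not show an equal level. The smallest p were those of the phosphatase gene Ptpn6 (0.23 ± 0.08, adjusted p = 0.128) and the granulocyte factor receptor gene Csf3r (-0.18 ± 0.07, adjusted p = 0.19). The other ligands, named after their values were seen, were at -0.15 ± 0.07 for Il34 (adjusted p = 0.334) and 0.04 ± 0.08 for Cx3cl1 (adjusted p = 0.832). Of 19 measured myeloid transcription factor genes, 1 fell (3.83% of all genes did) and 0 rose (median -0.01). It was Myb, a factor of blood progenitors and ciliated cells (-0.37 ± 0.07, adjusted p = 0.0199), whose call ended without control 1, control 2 or mutant 3 (adjusted p up to 0.0938). Spi1, named after its value was seen, was at 0.02 ± 0.11 (adjusted p = 0.967).

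Among 46 measured genes of tissue macrophages, 2 rose (3.84% of all genes did) and 2 fell (3.83%), and 42 were not called. At an unadjusted p under 0.05 the counts were 13 higher and 5 lower, where 3957 of all 19946 genes passed in either direction. The difference was above 0 in 29 of the 46 (48% of all genes) and below 0 in 17, with a median of 0.11. In 12 of the 46 the mutants lay wholly above the controls (13.4% of all genes did) and in 5 wholly below (12.6% of all genes). Of the 46 genes, 13 read above the median of all genes in controls, so many missing calls are of dim genes. Adgre1, the gene of an adhesion receptor that defines mouse macrophages, rose. It read 7.13, 7.04 and 7.23 (controls 1 to 3) against 7.42, 7.77 and 7.69 (mutants 1 to 3), a difference of 0.49 ± 0.10 (limma adjusted p = 0.0209). Its call ended without control 1, control 2, control 3 or mutant 3 (adjusted p 0.0823, 0.0937, 0.0515 and 0.0701). The zinc finger factor gene Sall1, known from microglia and kidney, rose (0.82 ± 0.10, adjusted p = 0.00194). The carbonyl reductase gene Cbr2, also active in airway secretory cells, fell (-1.28 ± 0.11, adjusted p = 0.000379). The growth factor gene Igf1, also made by mesenchyme, fell (-1.04 ± 0.20, adjusted p = 0.0166; up to 0.0775 without control 3, and not passing without control 1, control 2 or mutant 3).

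The complement genes C1qa, C1qb and C1qc, defining products of tissue macrophages that were named after their values were seen, did not pass. C1qa read 7.14, 7.00 and 6.99 (controls 1 to 3) against 7.14, 7.31 and 7.30 (mutants 1 to 3) (0.21 ± 0.07, adjusted p = 0.146). C1qb read 8.40, 7.96 and 8.23 (controls 1 to 3) against 8.28, 8.73 and 8.70 (mutants 1 to 3) (0.37 ± 0.15, adjusted p = 0.20). C1qc was at 0.33 ± 0.12 (adjusted p = 0.182). In C1qb and C1qc control 2 was the lowest array, as it was for Mrc1, Ptprc and Fcgr3.

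**Figure D4:**
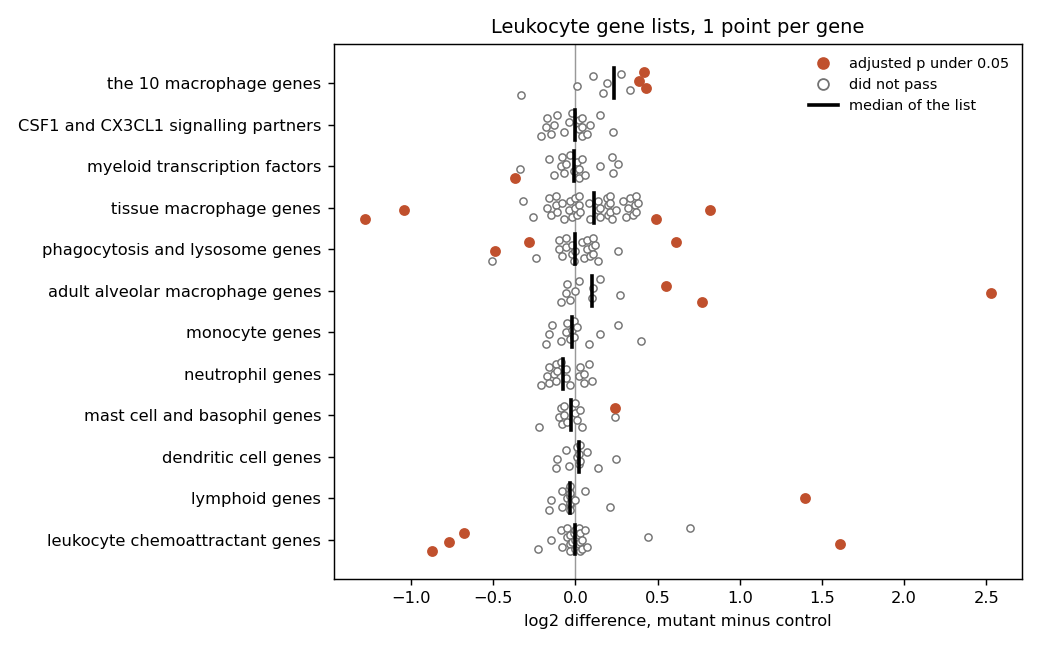
Log2 difference, mutant minus control, of every measured gene in the 10 macrophage genes and 11 further leukocyte lists, 1 point per gene (filled where the adjusted p was under 0.05), with a bar at the list median. The median is 0.24 for the 10 genes, 0.11 for tissue macrophage genes and 0.10 for adult alveolar macrophage genes, and lies between -0.07 and 0.02 for the other lists.

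Genes of other leukocytes gave few calls, where 7.66% of all genes were called in either direction. At an unadjusted p under 0.05, 3957 of all 19946 genes passed in either direction. None of 15 monocyte genes passed with limma (median -0.02; 2 higher and 0 lower at an unadjusted p under 0.05), and the smallest p were those of Ly86 (0.40 ± 0.13, adjusted p = 0.115) and of Fn1, the fibronectin gene that mesenchyme shares (0.26 ± 0.09, adjusted p = 0.162). None of 18 neutrophil genes passed (median -0.07; 0 higher and 1 lower at an unadjusted p under 0.05), with Mpo at -0.21 and S100a8 at -0.12 (adjusted p 0.13 and 0.32). None of 13 dendritic cell genes passed (median 0.02; 1 higher and 0 lower at an unadjusted p under 0.05), with Bst2 at 0.25 and Flt3 at -0.11 (adjusted p 0.0502 and 0.368). Of 14 mast cell and basophil genes 1 rose, the receptor gene Kit (0.24 ± 0.06, adjusted p = 0.0488). Kit is not confined to mast cells, and its call ended in 5 of 6 fits with an array left out, all but that without mutant 1, and also with the arrays centred on their medians (adjusted p = 0.138), after repeated quantile normalization (0.0587) and when all features were tested (0.052). Of 16 lymphoid genes 1 rose, Gata3 (1.40 ± 0.12, adjusted p = 0.000313), a factor also of several embryonic epithelia. Few genes of these lists read above the median of all genes in controls (7.34), namely 2 monocyte, 0 neutrophil, 1 dendritic, 2 mast cell and 1 lymphoid. For these dim genes a missing call does not show an equal level.

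In the list of adult alveolar macrophage genes, 3 of 13 rose (3.84% of all genes did) and 0 fell (median 0.10). None of these 3 is restricted to macrophages. The carbonic anhydrase gene Car4 read 5.98, 5.96 and 5.83 (controls 1 to 3) against 8.93, 9.35 and 7.08 (mutants 1 to 3), with the mutants far apart (SD 1.21). Its difference was 2.53 ± 0.50 (limma adjusted p = 0.0201), and the call ended without control 1, control 2 or control 3 (adjusted p up to 0.0855) and with trend and robust moderation (0.102). The others were the epithelial gene Plet1 (0.77 ± 0.11, adjusted p = 0.00524) and Trim29, a gene of squamous and basal epithelium as well (0.55 ± 0.12, adjusted p = 0.0291; up to 0.109 without control 1, and not passing without control 2 or control 3). Only 1 of the 13 read above the median of all genes in controls.

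Among 32 genes of leukocyte attraction and adhesion, 1 rose (3.84% of all genes did) and 3 fell (3.83%), with a median of 0.00. The chemokine gene Cxcl15, known from lung epithelium, rose (1.61 ± 0.15, limma adjusted p = 0.000537). The adhesion molecule genes Vcam1 (-0.87 ± 0.09, adjusted p = 0.00127) and Icam1 (-0.77 ± 0.06, adjusted p = 0.000177), which help leukocytes hold to vessel walls, fell. Cxcl14 fell as well (-0.68 ± 0.07, adjusted p = 0.000938). Each of these 4 calls held with any single array left out. In the list of phagocytosis and lysosome genes, 1 of 25 rose and 2 fell (median 0.00), near the shares over all genes. The integrin gene Itgb5 rose (0.61 ± 0.06, adjusted p = 0.00056), and the lysosomal genes Npc2 (-0.49 ± 0.07, adjusted p = 0.00433) and Ctsz (-0.28 ± 0.06, adjusted p = 0.0246) fell. The call of Ctsz ended without control 1, control 2, control 3 or mutant 1 (adjusted p up to 0.109).

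Markers of other tissue compartments moved beside the macrophage genes, and their part in the results was not tested. Among all genes 3.84% rose and 3.83% fell. The files hold no zeros and no detection calls, so a marker that is absent cannot be told from a dim one. Of 16 distal epithelial genes 11 fell and 0 rose (median -0.49), and their summed level was 13.72 to 13.78 in controls and 12.51 to 12.74 in mutants. Sftpc (-5.58), Cldn18 (-4.77), Krt7 (-1.44) and Krt8 (-1.03) changed most (adjusted p up to 0.00294). Of 8 fetal red cell genes 4 fell and 0 rose (median -0.24; summed level 12.85 to 13.47 in controls and 12.45 to 12.95 in mutants). They were Slc4a1 (-1.09), Alas2 (-1.04), Epb42 (-0.43) and Rhag (-0.34; adjusted p up to 0.0704 without control 3, and not passing without control 2). Of 15 endothelial genes 1 rose, Eng (0.37 ± 0.06, adjusted p = 0.0532 without control 2), and 0 fell. Eng went against the rest of its list, where the difference was below 0 in 14 of the 15 genes. The mutants lay wholly below the controls in 4 of the 15 and wholly above in 1. At an unadjusted limma p under 0.05 the counts were 1 higher and 2 lower. The endothelial median was -0.10, and the summed level was 13.97 to 13.99 in controls and 13.85 to 14.03 in mutants. Of 17 mesenchymal genes 3 rose, Fgf10 (0.77 ± 0.06), Lum (0.67 ± 0.15) and Pdgfrb, and 1 fell, Foxf1 (-0.38 ± 0.08), with a median of 0.04 and summed levels of 15.00 to 15.03 and 14.99 to 15.12. The calls of Lum (adjusted p up to 0.133 without control 2) and Foxf1 (up to 0.0989 without control 1) ended without any one of the controls, and that of Lum also without mutant 1 or mutant 2 and that of Foxf1 with the mean over its features (adjusted p = 0.0877). With the heart muscle level of each array as a covariate, 4 of the 10 macrophage genes were called higher and 0 lower, the fourth being Cd68 (0.39, adjusted p = 0.0122). That covariate mainly sets mutant 1 apart (1.18, against -0.18 in mutant 2 and -0.14 in mutant 3). The fit is thus close to leaving out mutant 1, with the same tilt for Cd68, and is no separate check.

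Over the 6 arrays, the other members correlated with Csf1r at Pearson r from -0.25 (Lyz2) to 0.88 (Mrc1), as a description of arrays that fall into 2 groups. The 5 genes most like Csf1r, among 9972 genes with a mean above the median, were Btbd3 (r = 0.997), Rps25 (0.997), Mafg (0.991), Myo7a (0.990) and Arap3 (0.988). With so few arrays 60 genes reached an r above 0.95. Of these 5 genes Myo7a, an unconventional myosin gene (0.62 ± 0.11, adjusted p = 0.0114), and Arap3, a GTPase-activating protein gene (0.42 ± 0.08, adjusted p = 0.0133), rose, and both calls ended without control 1 or control 2 (adjusted p up to 0.0562 and 0.0653). Btbd3 (0.08), Rps25 (0.10) and Mafg (0.14) did not pass.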

How the data were processed

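Whole lungs of 6 embryos at E14.5 were measured on single-colour Affymetrix arrays. Per the labels' protocols, total RNA was column-purified, copied with an oligo(dT) primer carrying a T7 promoter, amplified and labelled with biotin. The authors deposited log2 values. Per the submitters' processing notes they come from RMA (the tools listed are RMA, oligo and limma, with no version). RMA pulls dim features toward a floor and understates their changes. Of 35556 features, 21797 carried a single gene symbol and 1613 several. A gene was represented by its feature with the highest mean, which gave 19946 genes. A single group term was fitted with limma 3.58.1 in R 4.3.3 (lmFit, eBayes, two-sided), with Benjamini-Hochberg adjustment over all genes and a threshold of 0.05. The number of arrays, 3 per group, limits the precision, and nothing says whether the embryos of a group shared a litter.

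The members and 16 further lists (324 genes, 301 measured) were chosen with earlier results of these data known. Named are all members, the targeted genes, up to 4 called genes per list with the largest difference (or the 2 smallest p), and the 5 genes most like Csf1r. Others are marked as named after their values were seen. Alternatives were another normalization, centring, filter, feature rule, variance model and threshold, array weights, the replicate number as a block, a heart muscle covariate and each array left out. The fit was tested on simulated data.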

Additional observations from a re-analysis of the deposited data

How the results depend on the processing

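With any of the 17 alternatives the differences of the members other than Trem2 kept their sign wherever they were measured (a filter on dim genes left out Aif1), and 0 members were called lower. Many of these could not change a sign. The thresholds, the filter, the feature rules, the variance model and the replicate block leave a member's difference as it is. Trem2 was at -0.02 after repeated quantile normalization, -0.02 after centring, 0.00 (just below 0) without control 2 and -0.05 without mutant 3, and it ranged from -0.05 to 0.07 with single arrays left out. The count of members called higher, 3, was 5 at a threshold of 0.1 and 0 when at least 1.5-fold was also required, and it ranged from 0 (without control 1, and without control 2) to 3 with single arrays left out. The median difference of the members, 0.24, ranged from 0.16 (without control 2) to 0.31 (without control 3). The count of all genes called, 1528, ranged from 774 (without control 3) to 1745 (without mutant 2) with single arrays left out and was 549 with at least 1.5-fold; fewer arrays leave fewer residual degrees of freedom. Same-numbered arrays share only a number (correlations of their deviations -0.07, 0.05 and 0.15). With the replicate block 1137 genes and 2 members were called, and Cx3cr1 was not (adjusted p = 0.0734). Array weights called 4 members, centring 2 and testing all single-symbol features 2.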

Other observations

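Within the groups, most macrophage genes had their lowest control value in the same array, but shared no high array among the mutants. Control 2 held the lowest control value of 9 of the 10 genes, all but Cd68, at a median of -0.05 from the control means. The margin to the next control was wide for Fcgr3 (6.43 against 6.87) but small for others, such as Csf1r (7.93 against 7.94) and Trem2 (7.11 against 7.14). How often control 2 was lowest over all genes was not analysed here. Among the mutants, Cx3cr1, Cd68 and Fcgr3 were highest in mutant 2, Csf1r, Aif1, Trem2 and Lyz2 in mutant 3, and Csf1, Mrc1 and Ptprc in mutant 1. After subtraction of group means, the 45 pairs of members had Pearson correlations from -0.92 (Cx3cr1 and Trem2) to 0.93 (Mrc1 and Ptprc) over 6 arrays, with a median of 0.12 and 26 of 45 above 0. The SD was larger in mutants than in controls for 7 of the 10 genes, with medians of 0.15 and 0.07, against 0.0952 and 0.0611 over all genes.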
